A study of Mus musculus with 56 samples.

Results

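The 6 genes Wincr1, Mtap, Cdkn2a, Gm12610, Cdkn2b and Dmrta1 are neighbors on mouse chromosome 4 and were followed through all 28 conditions of a set of mammary tumor cell lines. They are 6 of the 20314 genes of the expression table. They were chosen by their position and by their levels across the lines, so their levels and the differences between lines are given as a description, with no test. The questions were whether a line lacked RNA of the whole stretch or only had a low level of some of its genes, and how the genes that were expressed responded to TGFβ.

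The cells came from mammary tumors of 12-week-old female MMTV-PyMT mice of the FVB/N strain, in which the mouse mammary tumor virus promoter drives the polyoma middle T oncogene. All lines therefore carry this transgene. The 7 genotypes of the β-catenin gene were fl/fl, D164A/fl, D164A/-, ΔC/fl, ΔC/-, dm/fl and dm/-, where fl is a floxed allele, D164A is the mutation that the study used against the binding of Bcl9 and Bcl9L, and the labels give ΔC and dm only as allele names. Lines with a mutant allele alone had been treated with an adenovirus carrying Cre recombinase and GFP, and GFP-positive cells were sorted, so these were sorted pools. Each genotype had 8 samples: 2 without and 2 with Wnt3a at 100 ng/ml for 3 days, and 2 without and 2 with TGFβ at 2 ng/ml for 4 days. The study's methods call the 2 samples of a condition biological duplicates, without saying whether they came from separate lines or from cultures of 1 line, and genotype and cell line cannot be told apart.

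Cdkn2a and Cdkn2b are among the best known tumor suppressor genes. Cdkn2a encodes 2 unrelated proteins from separate first exons: p16Ink4a, an inhibitor of the cyclin D-dependent kinases Cdk4 and Cdk6, and p19Arf, which binds Mdm2 and so stabilizes p53. Cdkn2b encodes p15Ink4b, a related inhibitor of Cdk4 and Cdk6 that is known as a TGFβ-induced gene of epithelial cells. Mtap encodes methylthioadenosine phosphorylase, a widely expressed enzyme that salvages adenine and methionine from a by-product of polyamine synthesis. In human tumors the matching region is often deleted, and MTAP is then commonly lost together with CDKN2A. Gm12610 is a long non-coding RNA listed with the synonym ANRIL, Wincr1 is a long non-coding RNA, and Dmrta1 encodes a transcription factor with a DM domain.

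The stretch spans 644.5 kb in the GRCm38 build, from 89050307 to 89694766. In RefSeq, Wincr1 (Entrez 100040617) lies on the plus strand at chr4:89050307-89084610 and Mtap (Entrez 66902) on the plus strand at chr4:89137370-89181090. Cdkn2a (Entrez 12578) lies on the minus strand at chr4:89274473-89294619, and Cdkn2b (Entrez 12579) on the minus strand at chr4:89306289-89311032. Gm12610 (Entrez 102633081) runs along the plus strand at chr4:89295180-89518621 and spans Cdkn2b. Dmrta1 (Entrez 242523) lies on the plus strand at chr4:89688198-89694766. Whether the counting used strand is not given in the sources used here, so reads of Gm12610 and Cdkn2b where they overlap may not be separable. A gene's value also counts all its transcripts, so p16Ink4a and p19Arf could not be told apart.

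All 6 genes had a promoter window in the RefSeq table for GRCm38.p6, which holds the C57BL/6J reference and not the FVB/N sequence, and Cdkn2a had 2 of them. The windows run from 250 bases before the first transcribed base to 50 bases from it on. The promoter of Cdkn2b is shown because Cdkn2b gave the largest called change with TGFβ. Those of the upstream Cdkn2a start and of Gm12610 are shown because these starts face away from each other only 561 bases apart. As whole genes, Cdkn2a and Gm12610 had opposite levels in fl/fl cells, but the use of a single start was not measured. Capitals mark the letters CAGAC, a motif bound by Smad proteins, and GGGCGG, a binding site of Sp1, on either strand. The sequences run 5′ to 3′ on the strand of the gene.
Cdkn2b, chr4:89310983-89311282, minus strand: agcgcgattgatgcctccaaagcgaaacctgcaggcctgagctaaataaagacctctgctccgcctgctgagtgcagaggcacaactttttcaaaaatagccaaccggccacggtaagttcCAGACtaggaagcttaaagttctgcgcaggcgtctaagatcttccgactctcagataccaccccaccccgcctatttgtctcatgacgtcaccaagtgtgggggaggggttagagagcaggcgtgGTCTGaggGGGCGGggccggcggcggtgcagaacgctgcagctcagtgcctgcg
Cdkn2a upstream start, chr4:89294570-89294869, minus strand: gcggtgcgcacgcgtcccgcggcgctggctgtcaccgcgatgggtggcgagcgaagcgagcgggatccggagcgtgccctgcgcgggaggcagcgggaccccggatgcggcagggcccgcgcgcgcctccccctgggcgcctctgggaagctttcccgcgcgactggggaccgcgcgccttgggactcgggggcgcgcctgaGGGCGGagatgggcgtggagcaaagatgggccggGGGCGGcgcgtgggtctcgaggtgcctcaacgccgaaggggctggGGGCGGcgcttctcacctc
Gm12610, chr4:89294930-89295229, plus strand: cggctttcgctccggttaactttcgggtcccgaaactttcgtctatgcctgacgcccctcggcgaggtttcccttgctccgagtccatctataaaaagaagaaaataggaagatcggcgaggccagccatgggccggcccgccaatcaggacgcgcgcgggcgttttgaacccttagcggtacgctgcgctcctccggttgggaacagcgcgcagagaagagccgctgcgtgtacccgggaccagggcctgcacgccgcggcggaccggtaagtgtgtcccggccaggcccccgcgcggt

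The Cdkn2b window held CAGAC 2 times, at -129 on the gene's strand and at -4 on the other strand, counted from the first transcribed base, and GGGCGG 1 time at 4. The upstream Cdkn2a window held GGGCGG 3 times and its downstream window 1 time, and neither held CAGAC. The Dmrta1 window held GGGCGG 2 times, and the windows of Gm12610, Mtap and Wincr1 held neither motif. CTTTGA, the core of the site of TCF and LEF factors, was in none of the 7 windows. The marked motifs of the Cdkn2b window do not overlap each other. Among all 32544 promoter windows of this length, 49.5% held CAGAC, 35.9% GGGCGG and 16.0% CTTTGA on either strand. A match is a description of the letters and not evidence of a binding site. The Gm12610 window was 64.7% G and C and the Cdkn2b window 57.7%.

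Library depth was 22.4 to 33.7 M reads in genes, and 3 reads, the highest count treated as not detected, corresponded to 0.092 to 0.146 CPM. Epithelial markers were present in every line: all 5 epithelial markers (Epcam, Cdh1, Krt8, Krt18, Cldn7) reached 1 CPM in at least 1 sample of each line, with a summed level of 1068 to 8143 CPM, although in dm/fl cells with TGFβ only 4 of 5 did. Of 4 immune markers only Cd68 reached 1 CPM, and both adipocyte markers stayed at or under 0.128 CPM in sum. The 6 mesenchymal markers summed to 5.58 to 778 CPM, and of the 3 endothelial markers Cdh5 reached 35.0 CPM in dm/fl cells with TGFβ. One library stood apart from the rest: dm/fl -Wnt3a replicate 1 correlated with its own replicate at r = 0.911 over log2(CPM + 1) of all genes and with a ΔC/fl library at 0.946. Results that rest on this dm/fl library are given with and without it. D164A/fl -Wnt3a replicate 2 was also nearest to a library of another genotype, D164A/- -Wnt3a replicate 2 (r = 0.986). It correlated with its own replicate at 0.974. This D164A/fl library had the highest Cdkn2a value of its line, 123 CPM, and the lowest Dmrta1 value, 0.901 CPM. These are bulk samples, in which fewer expressing cells and less RNA per cell cannot be told apart.

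Mtap separated the fl/fl line from all others. Its level in the 8 fl/fl samples ranged from 0.0403 to 1.16 CPM with a median of 0.108 CPM, and in the other 48 samples from 125 to 758 CPM. In reads, fl/fl libraries held 1 to 31 Mtap reads each and 57 in 221.0 M reads in all, while each dm/- library, for example, held 6291 or more. Of the 57 fl/fl reads, 31 came from 1 library, fl/fl -TGFβ replicate 2. The lines other than fl/fl overlapped in a chain: medians were 541 CPM in D164A/-, 498 in dm/fl, 448 in D164A/fl, 312 in ΔC/fl, 308 in dm/- and 283 in ΔC/-, and each neighbor in this order overlapped the next. The lowest value outside fl/fl, 125 CPM, was that of the dm/fl library that stood apart, and without it the lowest was 203 CPM. Of the 668 genes that had at least 100 CPM in all 48 samples outside fl/fl, Mtap was the only one at or below 2 CPM in all 8 fl/fl samples, with both limits set after the values were seen.

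Cdkn2a, the gene of p16Ink4a and p19Arf, was also near 0 in fl/fl cells. Its RNA amounted to 2 reads in the 221.0 M reads of the 8 fl/fl libraries, with 0 reads in 6 of them. In dm/- cells it amounted to 10 reads in 218.0 M, with 0 to 4 reads per library. The other lines formed a gradient: the median was 56.9 CPM in D164A/fl (range 25.5 to 123), 19.9 in D164A/- (4.94 to 93.1), 16.0 in ΔC/fl (5.25 to 27.0), 3.60 in ΔC/- (1.41 to 5.15) and 0.958 in dm/fl (0.132 to 4.90). Neighbors in this order overlapped except for ΔC/fl and ΔC/-, whose ranges were apart. The highest dm/fl value, 4.90 CPM, was that of the library that stood apart, and without it dm/fl cells had at most 2.05 CPM. In the Wnt3a experiment, replicate 2 had more Cdkn2a than replicate 1 in every condition of the D164A and ΔC lines. The 2 untreated samples had 25.5 and 123 CPM in D164A/fl cells, and the 2 treated samples 16.8 and 93.1 CPM in D164A/- cells. The highest value of each D164A and ΔC line was such a replicate 2 sample. In dm/fl cells replicate 1 was the higher, untreated and treated. The cause was not tested.

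Cdkn2b, the gene of p15Ink4b, was near 0 in the same lines as Cdkn2a. The 8 fl/fl libraries held 16 Cdkn2b reads in all, 11 of them in fl/fl -TGFβ replicate 2, the library that also held most of the Mtap reads. The dm/- libraries held 1 read in 218.0 M. Elsewhere the order of the lines was not that of Cdkn2a: medians were 116 CPM in ΔC/- (30.1 to 191), 76.9 in ΔC/fl (38.8 to 154), 51.7 in D164A/fl (21.7 to 80.1), 15.3 in D164A/- (4.32 to 74.2) and 13.1 in dm/fl (2.47 to 24.3). These neighbors overlapped, and the dm/fl range was apart from that of fl/fl cells, which had at most 0.412 CPM. The ΔC/- cells thus had the highest median Cdkn2b level and a Cdkn2a level of a few CPM. Per kb of exon, the median level of Cdkn2b in ΔC/- cells, 83.2 CPM per kb, was near that of Mtap, 87.8 CPM per kb, and that of Cdkn2a was 3.07 CPM per kb.

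Gm12610 had the opposite order to its neighbors in fl/fl cells. Its level was 5.92 to 11.8 CPM in the 8 fl/fl samples, above every sample of the other lines, which had at most 1.69 CPM. It was lowest in dm/- cells, with a median of 0.0959 CPM and 41 reads in all. The fl/fl range did not overlap that of any other line, while neighbors among the other lines overlapped. Thus fl/fl cells made RNA assigned to this gene, which starts beside Cdkn2a and spans Cdkn2b, while both of these genes had almost no reads. The values do not show from which part of the 223.4 kb of Gm12610 its reads came.

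The genes at the ends of the stretch were expressed in fl/fl cells. Wincr1 was detected in all 56 samples, with 6.80 to 22.8 CPM in fl/fl cells and medians between 6.63 CPM in D164A/- and 38.0 CPM in dm/fl, and the ranges of neighboring lines overlapped throughout. Dmrta1 had 3.26 to 45.2 CPM in fl/fl cells and 0.901 to 50.5 CPM in D164A/fl cells, and these ranges overlapped. In the other 5 lines it was at or below 0.330 CPM. It had 0 reads in the 212.0 M reads of ΔC/fl cells, which allows up to 0.0141 reads per M, and 0 reads in the 218.0 M of dm/- cells, which allows up to 0.0138. These limits cover counting error only.

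The low values of fl/fl and dm/- cells covered different genes of the stretch. In the order of the chromosome, fl/fl cells had near 0 for Mtap, Cdkn2a and Cdkn2b, with Wincr1, Gm12610 and Dmrta1 present. The dm/- cells had Wincr1 and Mtap at levels within the range of the other lines, and near 0 for Cdkn2a, Cdkn2b and, as in 4 other lines, Dmrta1. Gm12610, which lies between these genes, had its lowest median in dm/- cells, with 3 reads or fewer in 5 of 8 libraries. With TGFβ it had 13 and 15 reads there, or 0.492 and 0.496 CPM, above every ΔC/- sample (at most 0.472 CPM). Its level was at most 1.69 CPM in every line but fl/fl, so a low level was not particular to dm/- cells. In dm/fl cells Cdkn2a and Cdkn2b were present at a low level, with at least 75 Cdkn2b reads in every library. Of the 9931 genes with at least 2 CPM in all 8 dm/fl samples, 32, Cdkn2b among them, had 3 reads or fewer in all 8 dm/- samples, with both limits set after the values were seen. The Mtap, Cdkn2a and Cdkn2b reads of fl/fl cells and the Cdkn2a and Cdkn2b reads of dm/- cells stayed near 0 in untreated cells and with either cytokine. DNA was not measured, so loss of the locus and a silent locus cannot be told apart from these values.

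Genes with RNA in every sample lay on both sides of the stretch. Within 3 Mb of the stretch the table holds 39 other genes, 35 before it and 4 after it. Of these, 10 had at least 1 CPM in all 56 samples, 23, many of them type I interferon genes, stayed below 1 CPM in every sample, and 6 varied. The nearest gene at or above 1 CPM in all samples before the stretch was Gm49890, with a median of 41.0 CPM in fl/fl and 55.1 CPM in dm/- cells. Klhl9, which encodes a substrate adaptor of a ubiquitin ligase, had medians from 116 CPM in fl/fl to 192 CPM in D164A/- cells. After the stretch, the only gene at or above 1 CPM in all samples was Gm12669, 2111 kb away. It had a median of 30.1 CPM in fl/fl and 14.6 CPM in dm/- cells. Elavl2, an RNA-binding protein gene 1517 kb after the stretch, was also near 0 in fl/fl cells, with at most 0.0374 CPM, and low in the other lines, with medians from 0.257 CPM in D164A/fl to 3.69 CPM in ΔC/fl cells.

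**Figure D1:**
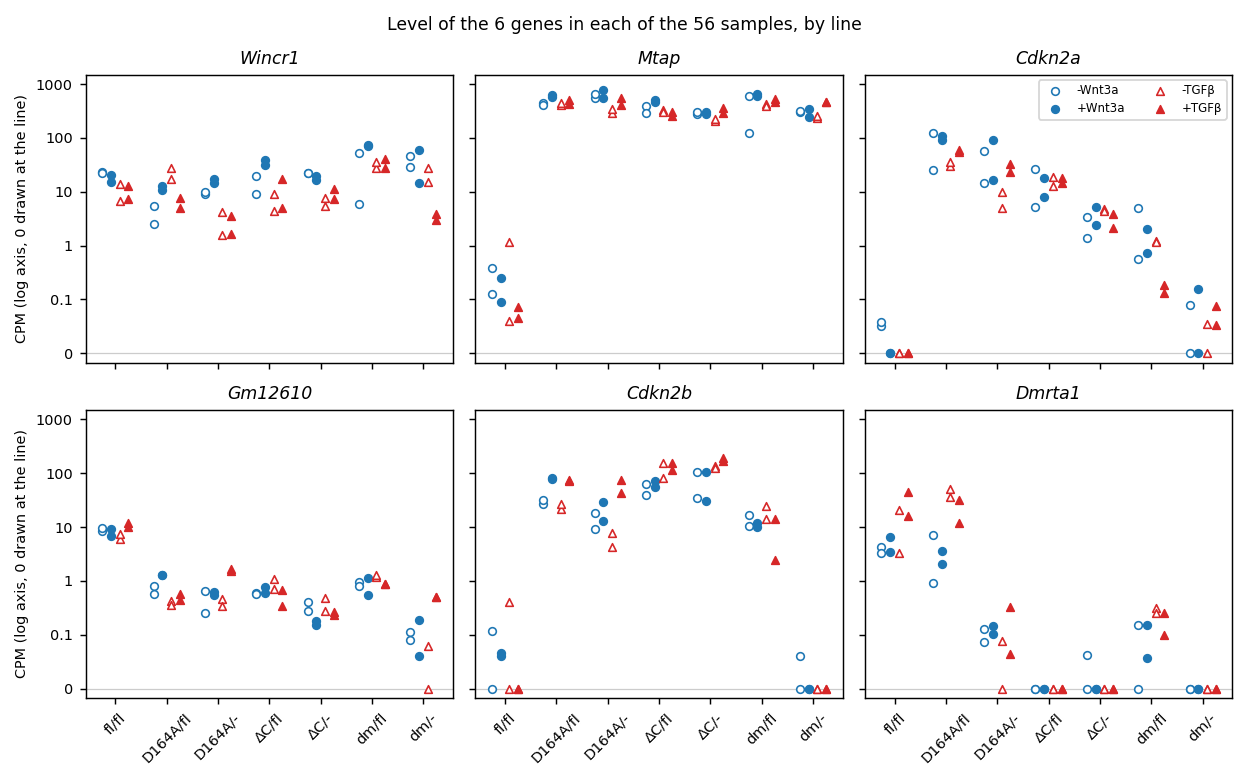
Each panel plots 1 gene in chromosome order, with the CPM of every sample on a log axis by line. Open and filled symbols are untreated and treated samples, circles the Wnt3a and triangles the TGFβ experiment, and 0 is drawn at the lowest line. The fl/fl samples are at or under 1.16 CPM for Mtap and the other lines at or above 125 CPM, or 203 CPM without the dm/fl library that stood apart.

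**Figure D2:**
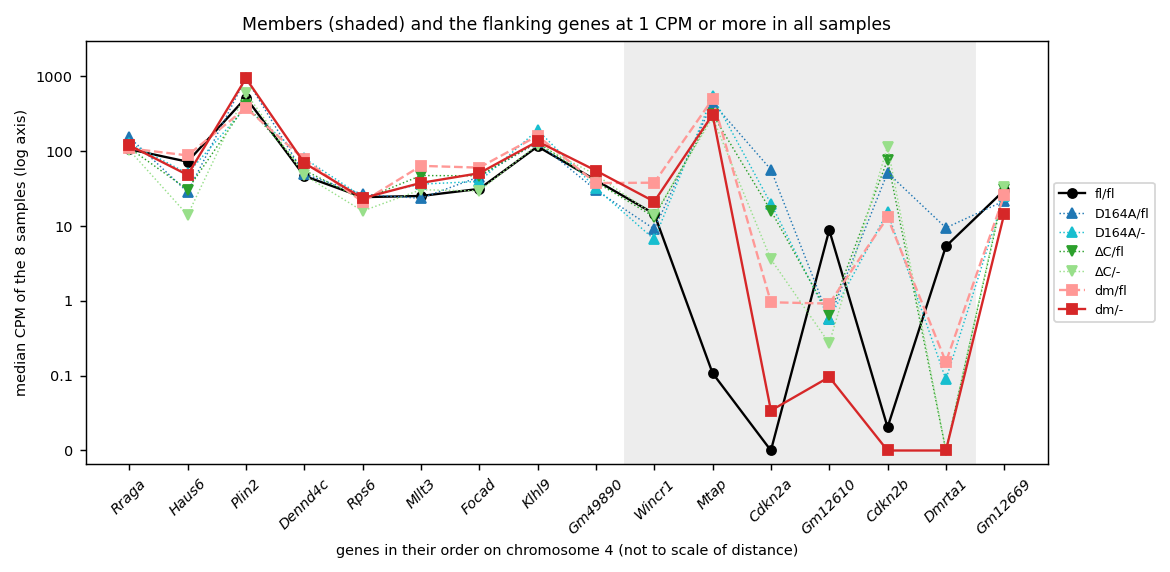
Median CPM of the 8 samples of each line on a log axis for the 6 genes (shaded) and the 10 flanking genes with at least 1 CPM in all samples, in chromosome order and not to scale. The fl/fl line drops at Mtap, Cdkn2a and Cdkn2b, and the dm/- line at Cdkn2a and Cdkn2b. Gm12610 is low in every line but fl/fl, and Dmrta1 in every line but fl/fl and D164A/fl.

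TGFβ acted in all 7 lines as seen from known target genes. Ccn2, a classical TGFβ target that encodes a matricellular protein, rose in 7 of 7 lines, by a log2 fold change of 1.68 in dm/fl to 4.05 in D164A/- cells. Smad7, an inhibitor in the TGFβ pathway, passed in 6 of 7, without ΔC/fl (0.67). Id1, another gene that TGFβ regulates, fell in ΔC/fl (-1.85), ΔC/- (-1.83) and dm/fl cells (-2.23). Log2 fold changes and their standard errors (SE) are of log2(CPM + 1), which understates the change of low genes, and a gene was called at an adjusted p of at most 0.05 (limma, Benjamini-Hochberg over 13754 genes) and a log2 fold change of 1 or more in either direction.

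For the 6 genes of the stretch, 3 of 42 tests of the response to TGFβ passed: Cdkn2b in D164A/- cells and Dmrta1 in fl/fl cells rose, and Wincr1 in dm/- cells fell. The share of all genes called was 6.25% in fl/fl, 3.38% in D164A/fl, 4.06% in D164A/-, 7.74% in ΔC/fl, 6.55% in ΔC/-, 10.3% in dm/fl and 6.12% in dm/- cells, so the members' share, at most 1 gene of 6 in a line, gives no result about the group as a whole. All 6 passed the filter on low values, some only through the lines in which they were high, and several of the 42 tests compared values at or near 0. The count was 5 with edgeR and 1, none of the 3, with only the samples compared.

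Cdkn2b in D164A/- cells had 4.32 and 7.77 CPM without TGFβ and 42.4 and 74.2 CPM with it. Both treated samples were above both untreated samples. The log2 fold change was 3.06 (SE 0.52, limma adjusted p = 0.000122), and edgeR gave 3.22. A fit on only the 4 samples compared gave a limma adjusted p of 0.0788 and no call. In these samples the summed epithelial markers were 1781 to 2030 CPM without and 2622 to 2698 CPM with TGFβ, and their part in the result was not tested. In D164A/fl cells, Cdkn2b had 21.7 and 26.9 CPM without and 71.3 and 75.8 CPM with TGFβ, and again the groups did not overlap. That change did not pass (log2 fold change 1.57, SE 0.52, limma adjusted p = 0.0902). The treated levels of both lines were close, 73.5 CPM on average in D164A/fl and 58.3 CPM in D164A/- cells, and the untreated levels were 24.3 and 6.05 CPM. The difference between the responses of the 2 lines was 1.5 on the log2 scale (SE 0.74, limma adjusted p = 0.722) and did not pass.

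The other lines gave no call for Cdkn2b. In ΔC/fl cells it had 154 and 82.8 CPM without and 154 and 116 CPM with TGFβ, which overlap. In ΔC/- cells it had 135 and 127 CPM without and 191 and 167 CPM with TGFβ, without overlap and with a log2 fold change of 0.44 (SE 0.52). In dm/fl cells the values were lower with TGFβ, 24.3 and 14.2 against 14.1 and 2.47 CPM, without overlap (log2 fold change -1.44, SE 0.52, limma adjusted p = 0.0685). In these dm/fl samples the summed mesenchymal markers were 329 to 551 CPM without and 103 to 140 CPM with TGFβ, and the summed endothelial markers, of which only Cdh5 reached 1 CPM, 0.0932 to 0.191 and 34.1 to 35.1 CPM; their part in the result was not tested. In dm/- cells 0 Cdkn2b reads were counted in all 4 samples of this experiment.

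Cdkn2a gave no call in any line. Its treated samples were above the untreated ones in both D164A lines and below them in ΔC/- and dm/fl cells, without overlap. The share of all genes with such separate groups was not computed, so this separation gives no result about Cdkn2a. In D164A/- cells it had 4.94 and 9.71 CPM without and 23.0 and 32.5 CPM with TGFβ (log2 fold change 1.83, SE 0.67, limma adjusted p = 0.141). In D164A/fl cells it had 29.9 and 36.2 CPM without and 54.5 and 59.4 CPM with TGFβ (log2 fold change 0.77). In dm/fl cells, where it was low, 39 and 37 reads without and 6 and 4 reads with TGFβ were counted (1.21 and 1.18 against 0.187 and 0.132 CPM, limma adjusted p = 0.555). In ΔC/- cells the means were 4.54 CPM without and 2.98 CPM with TGFβ.

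**Figure D3:**
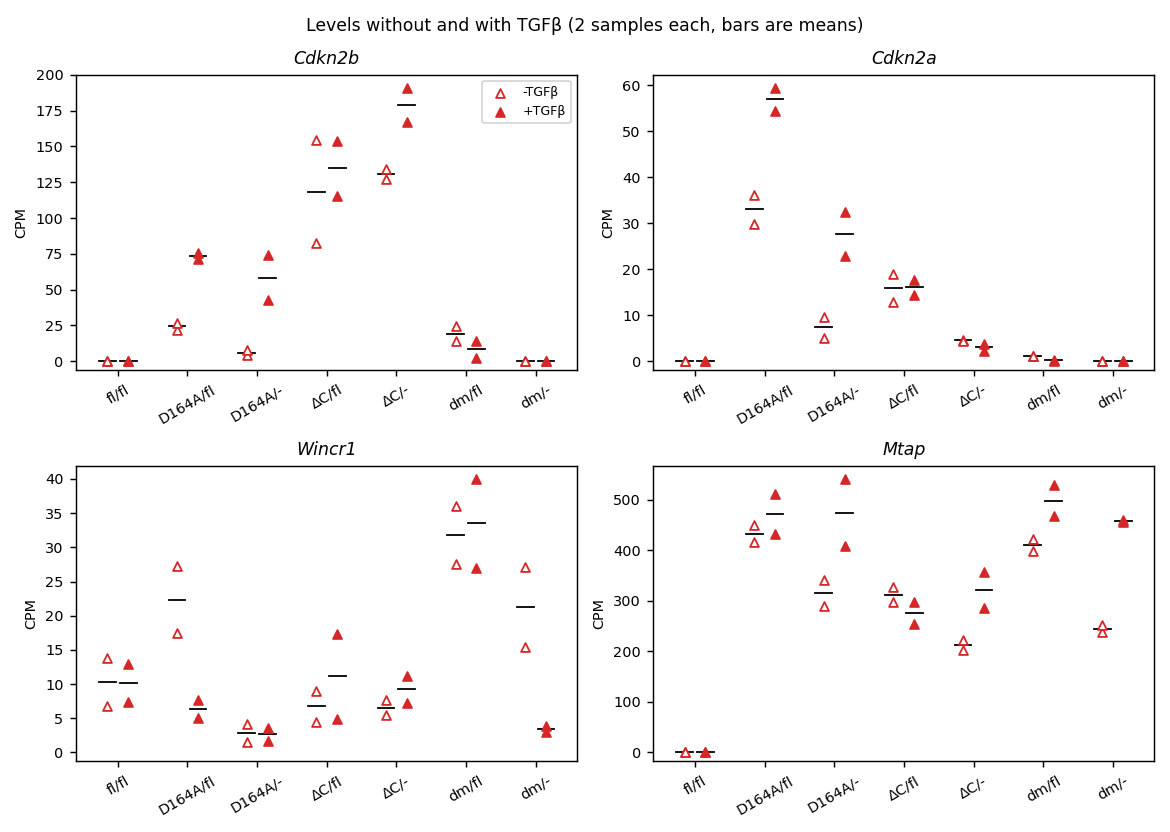
CPM of Cdkn2b, Cdkn2a, Wincr1 and Mtap in the TGFβ experiment by line, with 2 untreated (open) and 2 treated (filled) samples per line and their means as bars. Cdkn2b is higher with TGFβ in both D164A lines, from means of 24.3 to 73.5 CPM in D164A/fl and from 6.05 to 58.3 CPM in D164A/-, and stays at 0 in dm/- cells.

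Wincr1 fell with TGFβ in dm/- cells. It had 15.4 and 27.1 CPM without and 3.03 and 3.90 CPM with TGFβ, and the groups did not overlap (log2 fold change -2.27, SE 0.63, limma adjusted p = 0.0185). The call was lost when any of 3 of these 4 samples was left out, with a limma adjusted p of up to 0.246. In the same samples the summed mesenchymal markers were 6.97 to 7.96 CPM without and 36.8 to 126 CPM with TGFβ, and Cd68 alone made up an immune sum of 55.0 to 62.2 and 12.9 to 27.2 CPM; their part in the result was not tested. In D164A/fl cells Wincr1 had 27.2 and 17.4 CPM without and 4.97 and 7.61 CPM with TGFβ, without overlap and without a call (log2 fold change -1.67, limma adjusted p = 0.152), and without the library that stood apart it passed, with a limma adjusted p of 0.0469. In dm/fl cells it had 27.6 and 36.0 CPM without and 27.0 and 40.0 CPM with TGFβ, which overlap. The difference of the dm/- response from that of dm/fl cells was -2.33 (SE 0.89, limma adjusted p = 0.114), and it passed without the library that stood apart, with a limma adjusted p of 0.0357.

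Dmrta1 rose with TGFβ in fl/fl cells, narrowly and with overlap. It had 20.3 and 3.26 CPM without and 45.2 and 16.1 CPM with TGFβ, so that 1 untreated sample was above 1 treated sample (log2 fold change 1.56, SE 0.49, limma adjusted p = 0.047). The call was lost in 44 of the 56 fits that left out 1 library, and its log2 fold change ranged from 0.40 to 2.72 over the 56 fits. In these fl/fl samples the summed mesenchymal markers were 5.58 to 11.2 CPM without and 30.3 to 32.8 CPM with TGFβ, and the summed endothelial markers 0.150 to 0.282 and 2.93 to 3.71 CPM; their part in the result was not tested. In D164A/fl cells it had 50.5 and 35.5 CPM without and 32.1 and 11.9 CPM with TGFβ (log2 fold change -1.07, limma adjusted p = 0.301). The untreated D164A/fl samples of the Wnt3a experiment had only 7.02 and 0.901 CPM, below both untreated samples of the TGFβ experiment, a difference that was not tested.

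Gm12610 was low outside fl/fl cells, and its changes were small on the log2(CPM + 1) scale. In D164A/- cells 12 and 9 reads without and 35 and 46 reads with TGFβ were counted, or 0.463 and 0.343 against 1.54 and 1.69 CPM, without overlap. The log2 fold change was 0.90 (SE 0.16, limma adjusted p = 0.000167), under the limit of 1, and edgeR on the whole reads called it with 1.94. In dm/- cells there were 2 and 0 reads without and 13 and 15 reads with TGFβ (log2 fold change 0.54, limma adjusted p = 0.0282), and edgeR called this too. In fl/fl cells Gm12610 had 5.92 and 7.34 CPM without and 9.98 and 11.8 CPM with TGFβ (log2 fold change 0.64, limma adjusted p = 0.00582), below the limit.

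Mtap was not called in any line with limma. In dm/- cells it had 238 and 252 CPM without and 456 and 460 CPM with TGFβ, which did not overlap (log2 fold change 0.90, SE 0.36, limma adjusted p = 0.143). The dm/fl library that stood apart widened this SE, which is shared by all lines. Without that library the log2 fold change was again 0.90, with a smaller SE, and stayed under the limit of 1. In D164A/- cells it had 289 and 340 CPM without and 409 and 540 CPM with TGFβ (log2 fold change 0.58). In fl/fl cells the 31 reads of -TGFβ replicate 2 stood against 1 read in the other untreated sample and 1 and 2 reads with TGFβ, and edgeR called this difference (log2 fold change -3.24, adjusted p = 0.0179), which rested on that 1 library.

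None of the 18 differences between the TGFβ response of a line with a deleted floxed allele and that of its floxed partner passed with limma, with 3 at an unadjusted p under 0.05, while edgeR called 1. Of all genes, 1.35% were called for D164A, 3.13% for ΔC and 7.31% for dm. The edgeR call was Gm12610 in the dm pair, with few reads, for which limma gave a difference of 0.78 (SE 0.22, adjusted p = 0.0225).

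No member was called for Wnt3a in any line. None of the 42 tests passed with limma or with edgeR, with 6 at an unadjusted p under 0.05 in limma and 2 in edgeR. The share of all genes called was 0.378% in fl/fl, 4.15% in D164A/fl, 0.654% in D164A/-, 0.225% in ΔC/fl, 0.0509% in ΔC/-, 0.574% in dm/fl and 0.0% in dm/- cells, where 29 genes had an unadjusted p under 0.05 in limma and 39 in edgeR, which called 0. Cdkn2b in D164A/fl cells had 27.2 and 32.0 CPM without and 78.6 and 80.1 CPM with Wnt3a, without overlap (log2 fold change 1.40, SE 0.52, limma adjusted p = 0.15). In the same cells Wincr1 had 5.37 and 2.52 CPM without and 12.6 and 10.6 CPM with Wnt3a (log2 fold change 1.41), and Mtap 446 and 409 against 572 and 621 CPM (log2 fold change 0.48). In dm/fl cells the log2 fold changes of Wincr1 and Mtap, 1.94 and 1.19, rested on the library that stood apart, with 5.90 CPM of Wincr1 and 125 CPM of Mtap, and without it they were 0.47 and 0.06.

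**Figure D4:**
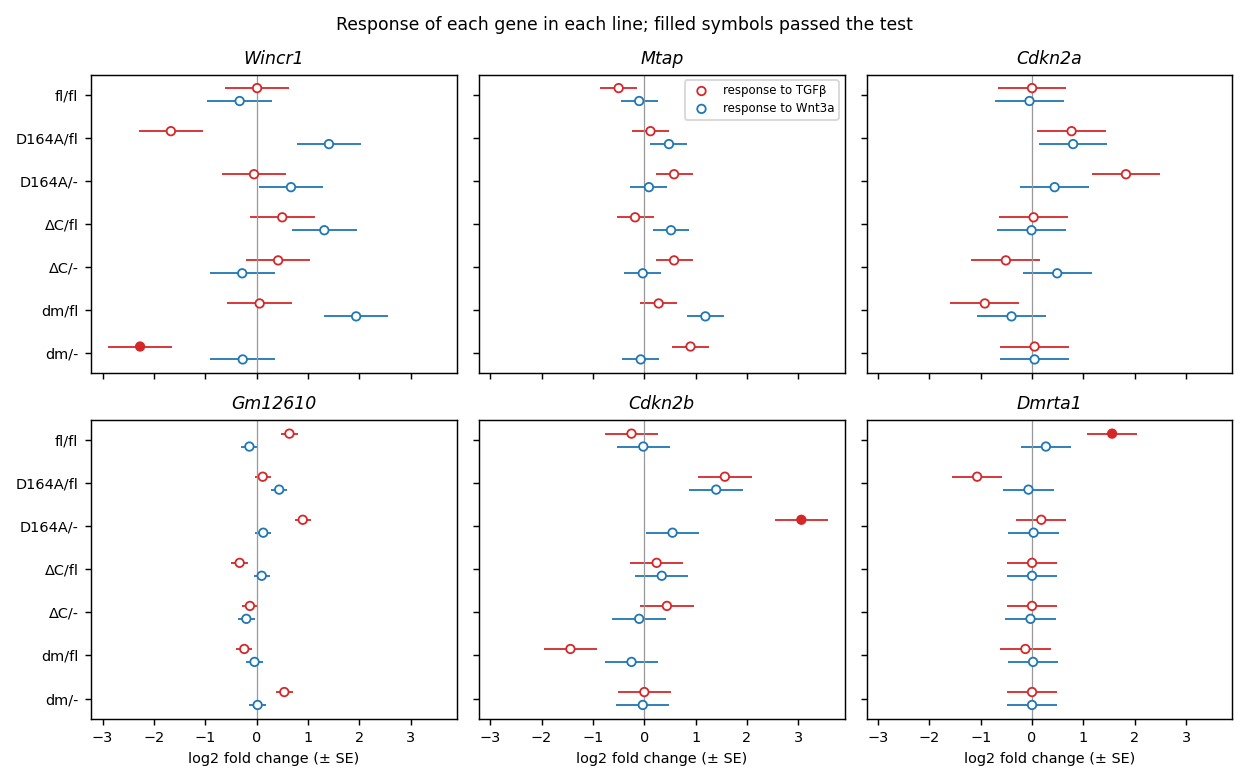
Log2 fold change of log2(CPM + 1) with its SE for each gene and line, red for TGFβ and blue for Wnt3a, with filled symbols for calls. The 3 filled symbols are Wincr1 in dm/- (-2.27), Cdkn2b in D164A/- (3.06) and Dmrta1 in fl/fl cells (1.56).

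The partners of these proteins were expressed in the lines without Cdkn2a and Cdkn2b RNA. Cdk4, the kinase that p16Ink4a and p15Ink4b inhibit, had a median of 276 CPM in fl/fl and 549 CPM in dm/- cells, and Cdk6 152 and 134 CPM. The remaining members of the INK4 family were also present: Cdkn2c, the gene of p18Ink4c, had a median of 26.8 CPM in fl/fl and 24.2 CPM in dm/- cells, and Cdkn2d 14.7 and 16.1 CPM. Mdm2, the ubiquitin ligase that p19Arf binds, had 194 and 222 CPM, and Trp53, the gene of p53, 225 and 179 CPM. Prmt5, the methyltransferase that methylthioadenosine inhibits, had 138 to 336 CPM in fl/fl cells, above every D164A/- sample (47.9 to 78.7 CPM) and every D164A/fl sample (61.2 to 103 CPM), and overlapped the other 4 lines.

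With TGFβ, the list of INK4 and other Cdk inhibitors, D cyclins, Cdks, Rb proteins and E2f factors, of which 15 of 16 genes were tested and Cdkn1c was too low, gave 7 decreases and no increase in 105 tests. This is 6.67% of its tests, near the 6.35% called in either direction over all genes and the 7 lines, of which decreases made up 3.24% of tests. In dm/- cells 3 fell: Cdk6 from 128 to 43.8 CPM, Ccnd1, a D cyclin, from 580 to 165 CPM and Cdkn1a, the gene of the p53 target p21, from 233 to 72.6 CPM. In ΔC/- cells Cdkn2c fell from 19.6 to 3.20 CPM (log2 fold change -2.30, SE 0.42, limma adjusted p = 0.000239) and Cdkn1b, the gene of p27Kip1, from 31.4 to 14.7 CPM. In these ΔC/- samples the summed epithelial markers were 2156 to 2540 CPM without and 4508 to 7943 CPM with TGFβ, and the immune sum, nearly all Cd68, 59.2 to 79.4 and 8.03 to 8.73 CPM; their part in the result was not tested. Ccnd1 fell in ΔC/fl cells and Ccnd2, another D cyclin, in dm/fl cells. The median log2 fold change of the list lay between -0.90 in dm/- and -0.04 in D164A/fl cells, beside -0.028 to 0.029 for all genes.

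The list of Arf and p53 genes gave 2 increases in 84 tests, both of Plk2, a kinase and p53 target: from 225 to 1101 CPM in ΔC/fl and from 150 to 499 CPM in dm/fl cells. In the ΔC/fl samples, where Ccnd1 fell too, 3 of 5 epithelial markers fell and their sum was 1648 to 2196 CPM without and 1155 to 1517 CPM with TGFβ; their part in these results was not tested. Its median log2 fold change was -1.03 in ΔC/- and -0.90 in dm/- cells, where no gene of the list passed, and 0.31 in D164A/- cells. The list of methylthioadenosine and polyamine genes gave 1 decrease in 84 tests, of Odc1, the first enzyme of polyamine synthesis, from 86.0 to 34.7 CPM in dm/- cells. Its medians lay between -0.24 and 0.15. Together 10 of 273 tests of the 3 lists passed, or 3.66%, a smaller share than the 6.35% of all genes; this difference was not tested.

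The genes most like the members across the 28 condition means of log2(CPM + 1) were named as a description, since these points share lines and libraries. For Mtap they were Prdx4 (Pearson r = 0.96, n = 28), Galnt7 (0.94) and Gjc1 (0.91), which lie on other chromosomes. Prdx4, a peroxiredoxin gene, had a median of 0.0427 CPM in fl/fl and 27.9 to 110 CPM in the other lines. For Cdkn2a they included Gab1 (0.88) and Hoxa10 (0.87), and for Cdkn2b Mylk (0.93), Cstf2t (0.92) and Fam20a (0.89). Cstf2t, a gene of RNA 3′ end processing, had a median of 0.334 CPM in fl/fl, 4.26 CPM in dm/- and 118 CPM in ΔC/- cells.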

How the data were processed

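RNA sequencing values of 56 samples were used, 2 for each of 28 conditions, grouped by their labels. According to their methods, the authors made stranded poly(A) libraries, sequenced 1 end, aligned with STAR to mm10, kept unique hits and counted reads starting in RefSeq exons with qCount. The deposited values are a normalized signal, counts per M of an effective library size (called CPM here), which implied scaling factors of 0.81 to 1.14. In this signal 100% of the deposited values were whole multiples of 1 read (tolerance 0.001), so read counts were recovered. Symbols came from RefSeq for GRCm38.p6 (20261 of 20314 genes). The 13754 genes reaching 1 CPM in 2 or more samples were tested as log2(CPM + 1) with limma 3.58.1 in R 4.3.3, with a coefficient for each condition, contrasts and a trend of the variance. Alternatives were a pseudocount of 0.1, no filter, median of ratios, edgeR 4.0.16 on the reads, fewer samples, a replicate block, a GC trend (lowess, span 0.3) and leaving out each library. Tests were tried on simulated data. Exon lengths and GC content came from GENCODE M21. The genes named were the 6 members, every gene within 3 Mb, lists of pathway, TGFβ target and marker genes, and the 3 genes most like Mtap, Cdkn2a and Cdkn2b. Results for 2 of these genes are not reported here. Members and lists were chosen with earlier results of these data known. Same-numbered samples deviated together in 12 of 14 comparisons (r over 0.1), not all, and the labels do not pair them. Doses and times came from a protocol text that names other cell lines, and from the authors' methods.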

Additional observations from a re-analysis of the deposited data

Results flagged for a closer look

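The 8 samples of a line cover 4 conditions. Within them, Dixon's test at its 95% critical value set a single sample apart in 5 of 37 pairs of gene and line. These pairs had more than 3 reads in a sample. Chance flags about 1 in 20 only among independent values of 1 normal distribution. The values here cover 4 conditions and some lie near 0, so 5 of 37 cannot be read against that rate. In fl/fl cells, -TGFβ replicate 2 was the highest for Mtap (1.16 CPM) and for Cdkn2b (0.412 CPM). In dm/fl cells, -Wnt3a replicate 1, the library that stood apart, was the highest for Cdkn2a (4.90 CPM). Dmrta1 was highest in +TGFβ replicate 1 of fl/fl cells (45.2 CPM) and in +TGFβ replicate 2 of D164A/- cells (0.330 CPM, 9 reads). The causes were not tested.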

How the results depend on the processing

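Of 3 calls for TGFβ, Cdkn2b in D164A/- cells was called in 8 of 9 other settings and Wincr1 in dm/- cells in 8 of 9, both lost with only the samples compared, and Dmrta1 in fl/fl cells in 5 of 9; no value reversed. The TGFβ count of 3 became 5 with edgeR, 1 with only the samples compared, 8 with the replicate block, 8 with the GC trend removed and the block, and 8 with crossed numbers, a setting added after the data were seen because same-numbered samples of ΔC/- cells deviated in opposite directions (r = -0.20). It was 1 to 4 without single libraries, with 1 without dm/- +TGFβ replicate 1, -TGFβ replicate 2 or +TGFβ replicate 2. The Wnt3a count of 0 became 2 with the replicate block, 1 with the GC trend removed, 3 with both and 2 with crossed numbers, and was 0 to 2 without single libraries, with 2 without dm/fl -Wnt3a replicate 2. The count of 0 for deleted against floxed lines became 1 with a pseudocount of 0.1, 1 with edgeR, 1 with only the samples compared, 3 with the block, 4 with the GC trend removed and the block, and 3 with crossed numbers, and was 0 to 1 without single libraries, with 1 without dm/fl -Wnt3a replicate 1 or 2 or +TGFβ replicate 1. The count of 10 pathway list calls became 31 with the block, 25 with the GC trend removed, 36 with both and 31 with crossed numbers, and was 7 to 16 without single libraries, with 16 without dm/fl -Wnt3a replicate 1 or 2. With the block, calls were added for Cdkn2b in D164A/fl and dm/fl, Cdkn2a in D164A/-, and Wincr1 and Dmrta1 in D164A/fl cells, and, between deleted and floxed lines, for Cdkn2b in the D164A (limma adjusted p = 0.014) and dm pairs (0.00595) and Wincr1 in the dm pair (0.0156); the numbers are not known to pair the samples. In the Wnt3a comparison of fl/fl cells, the median of all genes was 0.117 with a pseudocount of 0.1 and 0.126 with edgeR. Depth limits statements on genes at 3 reads or fewer.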
